A study of Mus musculus with 35 samples.

Results

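The genes described here mark T cells and cytotoxic lymphocytes in healing mouse skin. They are Cd3d, Cd3e and Cd3g, which encode the CD3 chains of the T cell receptor complex; the co-receptor genes Cd4 and Cd8a; the receptor-proximal kinase gene Lck; the co-stimulatory receptor gene Cd28; Gzmb, encoding granzyme B; Foxp3, the lineage factor of regulatory T cells; and Nkg7, a granule protein gene of natural killer cells and cytotoxic T cells. The 10 genes were chosen by name, with earlier results of these data known, out of 22830 gene symbols in each of the deposited count tables, and all 10 were present in both tables. Where a symbol had several transcript entries, the entry with the largest total was used. The wounds came from a mouse model of classical Ehlers-Danlos syndrome, and RNA-seq libraries were made from 35 wounds, 23 in an experiment on day and fibroblast transfer and 12 in an experiment on cilengitide.

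All mice carried floxed Col5a1 alleles on a B6 background, were between 8 and 12 weeks old, included both sexes, and received tamoxifen. In Col5a1CKO mice tamoxifen activated a Col1a2CreERT transgene, so that Col5a1 was deleted in Col1a2-expressing fibroblasts, while WT mice were Cre-negative Col5a1 fl/fl littermates. The day and fibroblast experiment held 7 WT and 7 Col5a1CKO wounds of day 14, 3 Col5a1CKO wounds of day 14 whose bed was injected with cultured WT fibroblasts on day 3, and 3 WT and 3 Col5a1CKO wounds of day 19. The paper's legends call groups of 7 WT and 7 Col5a1CKO wounds of day 14 vehicle groups, and another legend lists 4 of each. Its methods name PBS as the control for mice without fibroblasts. The sample titles name no vehicle, so which of these day 14 wounds received PBS is not known. For the day 19 Col5a1CKO wounds, the treatment label names WT fibroblasts while the sample titles do not, and the titles were followed. The cilengitide experiment held 4 WT and 4 Col5a1CKO wounds under vehicle (PBS) and 4 Col5a1CKO wounds under daily cilengitide, a blocker of αvβ3 integrin, at 20 mg/kg, all harvested at day 14. The study's methods describe replicates as separate biological replicates, while the labels do not tie each wound to a mouse, and p-values measure the spread between these samples.

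A T cell recognises antigen through its receptor, the CD3 chains carry the signal into the cell, and Lck starts the phosphorylation cascade, helped by CD4 or CD8 and by CD28. Cytotoxic T cells and natural killer cells kill with granules that hold granzymes and perforin, and regulatory T cells, which depend on FOXP3, restrain inflammation in skin. Mouse skin also holds T cells that live in the epidermis among keratinocytes, as well as T cells of the dermis and cells recruited by injury.

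Of the 10 genes, the 3 CD3 genes lie side by side on chromosome 9. In the mm9 build, Cd3g runs from 44777655 to 44788514 on the minus strand, Cd3d from 44789876 to 44795135 on the plus strand and Cd3e from 44806826 to 44817673 on the minus strand. The start sites of Cd3g and Cd3d are 1362 bp apart, and the cluster spans 40019 bp. Promoter sequence from 250 bases before to 50 bases after the annotated start was taken from RefSeq (GRCm38.p6, the build of the promoter coordinates only), in which 8 of the 10 genes had a match, and is shown for Cd3e and Nkg7, which fell in vehicle-treated Col5a1CKO wounds, and for Gzmb, which rose there. Capitals mark the letters TGTGGT or their reverse complement ACCACA, the core that RUNX factors bind. The windows are chr9:45009562-45009861 on the minus strand for Cd3e, chr7:43436888-43437187 on the plus strand for Nkg7 and chr14:56262285-56262584 on the minus strand for Gzmb.
Cd3e: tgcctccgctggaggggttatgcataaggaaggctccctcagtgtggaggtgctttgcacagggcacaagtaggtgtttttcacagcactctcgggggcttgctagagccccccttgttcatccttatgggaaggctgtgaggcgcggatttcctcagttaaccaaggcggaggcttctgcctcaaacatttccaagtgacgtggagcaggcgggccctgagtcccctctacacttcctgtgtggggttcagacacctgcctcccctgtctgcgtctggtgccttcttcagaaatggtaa
Nkg7: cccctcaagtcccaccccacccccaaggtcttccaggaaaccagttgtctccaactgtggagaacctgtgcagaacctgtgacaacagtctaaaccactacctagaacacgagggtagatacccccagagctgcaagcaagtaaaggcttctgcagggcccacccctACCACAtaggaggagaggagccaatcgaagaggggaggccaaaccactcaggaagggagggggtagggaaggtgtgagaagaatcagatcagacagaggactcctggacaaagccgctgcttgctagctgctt
Gzmb: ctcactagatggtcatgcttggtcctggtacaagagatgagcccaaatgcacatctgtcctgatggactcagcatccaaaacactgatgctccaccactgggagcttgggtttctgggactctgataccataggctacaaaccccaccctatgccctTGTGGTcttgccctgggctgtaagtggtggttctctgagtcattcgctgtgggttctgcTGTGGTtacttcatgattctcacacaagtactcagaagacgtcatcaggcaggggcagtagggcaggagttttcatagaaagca
The Gzmb window held 2 matches, the Nkg7 window 1 and the Cd3e window none. Across both strands, the RUNX letters were present in 3 of the 8 matched genes and in 16.8% of 32851 RefSeq promoter windows of the same length. The 8 genes had 10 windows, and a gene counted if any of its windows matched. Counts by gene and shares by window are therefore not in the same unit. The letters TGANTCA, bound by AP-1, were present in 1 of the 8 genes and 7.81% of all windows, and those bound by NFAT (GGAAAA) in 1 and 23.4%. The letters GGTGTGA (T-box factors) were present in 1 of the 8 genes and 3.98% of all windows, and TTCNNNGAA (STAT factors) in 4 and 8.30%. Overlap between the motifs was not examined, and a match is a description of the letters, not a measured binding site.

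Total counts ranged from 15043531 to 35700325 in the day and fibroblast libraries and from 51211600 to 68266760 in the cilengitide libraries. In the day and fibroblast experiment, 9 of the day 14 libraries, replicates a to d of WT and a to e of Col5a1CKO, stood apart by a lower ratio of GC-rich to GC-poor genes, 1.541 log2 units away from the remaining 14. They are called the lower library set here, and the other 14 the upper set. Within the lower set, the WT libraries had counts for 12985 to 14799 genes, against 16756 to 16985 in the upper-set WT libraries of the same day. Levels in CPM are the count scaled to the library total after that total was multiplied by a normalisation factor (TMM). The targeted gene Col5a1 ranged from 345 to 2400 CPM in day 14 WT wounds and from 171 to 667 in day 14 Col5a1CKO wounds. In the upper set of day 14 it was at 345 to 378 (WT) and 229 to 351 CPM (Col5a1CKO), which overlapped. The lower set held 851 to 2400 and 171 to 667 CPM. Col5a1 ranged from 514 to 5410 and from 614 to 1090 CPM at day 19, and from 449 to 2630 and from 256 to 1320 in WT and Col5a1CKO vehicle wounds. At adjusted p below 0.05 and 2-fold, it passed in no comparison (day 14 adjusted p = 0.0757, edgeR). The summed level of 5 B cell markers was at most 5.33 CPM in every wound.

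Per unit of transcript length, Cd3g and Cd3e had the highest median levels and Cd8a and Cd28 were at its low end. RPKM here is the count per kilobase of transcript, scaled to the library total over all transcript entries, without the TMM factor. Over the 14 upper-set wounds, the median level of Cd3g was 11.1 RPKM, with a range of 0.731 to 20.5. Medians then followed of 5.60 for Cd3e, 4.37 for Cd4, 3.32 for Nkg7, 3.12 for Cd3d, 2.59 for Lck, 2.41 for Gzmb, 0.573 for Foxp3, 0.388 for Cd28 and 0.341 RPKM for Cd8a. Each gene's range overlapped that of its neighbour in this order, so no neighbouring pair stood apart beyond the spread of the wounds. The order changed between groups. In the 3 upper-set WT wounds of day 14, Nkg7 had a median of 5.61 RPKM, against 0.831 for Cd4 and 0.287 for Gzmb. These values were read only in the day and fibroblast experiment.

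**Figure D1:**
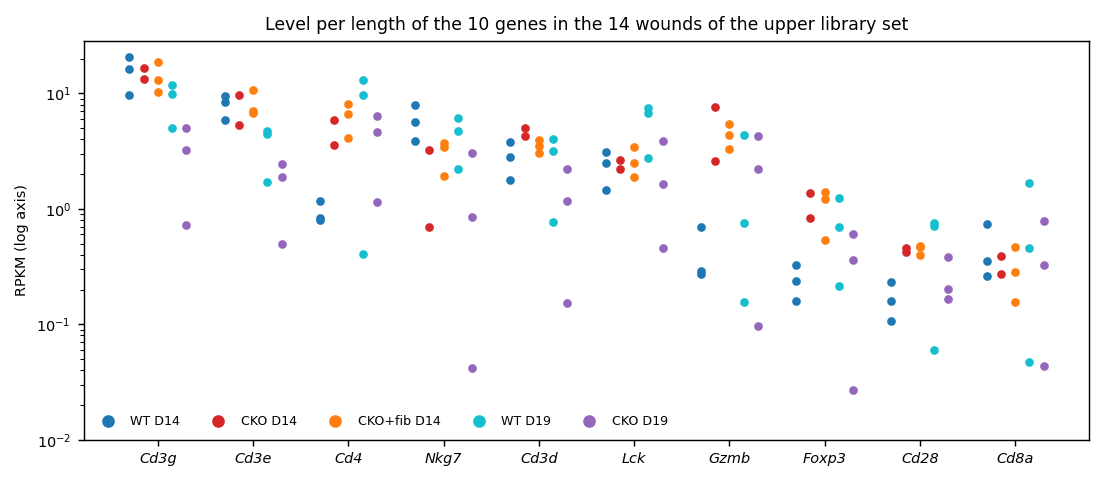
Level of each gene in RPKM (log axis) in the 14 upper-set wounds, 1 point a wound, coloured by group, with genes ordered by median. Cd3g is highest with a median of 11.1 RPKM and Cd8a lowest with 0.341, and the day 14 WT wounds are high for Nkg7 and low for Gzmb and Cd4.

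The clearest differences came from the cilengitide experiment, in which vehicle-treated Col5a1CKO and WT wounds were compared to ask what loss of Col5a1 in fibroblasts does to the wound. Gzmb, Foxp3, Cd4 and Cd28 rose in Col5a1CKO wounds while Cd3e and Nkg7 fell, and Cd3d, Cd3g, Cd8a and Lck did not pass the test. A gene is said to have risen or fallen when its adjusted p (edgeR quasi-likelihood test, Benjamini-Hochberg over all genes tested) was below 0.05 and its change at least 2-fold. The count was 4 of 10 higher and 2 of 10 lower, against 17.5% higher and 13.4% lower among the 15434 genes tested. The median log2 fold change was 0.03 over the 10 genes and 0.02 over all genes tested. In bulk tissue, fewer cells of a type and less RNA per cell cannot be told apart.

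Granzyme B, the serine protease that cytotoxic granules deliver into target cells, differed most. Gzmb was at 0.853, 0.976, 0.539 and 0.804 CPM in the 4 WT wounds and at 7.74, 13.2, 24.5 and 5.40 CPM in the 4 Col5a1CKO wounds. Every Col5a1CKO wound lay above every WT wound, and the Col5a1CKO wounds also spread more widely. The group means were 0.793 ± 0.184 and 12.7 ± 8.51 CPM (SD, n = 4 each), and the log2 fold change was 3.96 ± 0.53 (SE, adjusted p = 0.0013, edgeR), or 15.5-fold.

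Nkg7, whose protein sits in the membrane of the same kind of granule, went the other way. It was at 2.59, 2.33, 4.22 and 5.51 CPM in WT wounds and at 0.513, 0.894, 0.395 and 0.667 CPM in Col5a1CKO wounds. The lowest WT wound was above the highest Col5a1CKO wound. Its log2 fold change was -2.60 ± 0.41 (SE, adjusted p = 0.0022, edgeR, n = 4 each), or 6.07-fold lower.

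Foxp3 was at 1.61, 0.976, 0.467 and 1.14 CPM in WT wounds and at 4.36, 8.19, 7.39 and 2.36 CPM in Col5a1CKO wounds. The groups did not overlap. Foxp3 had a log2 fold change of 2.37 ± 0.52 (SE, adjusted p = 0.0076, edgeR, n = 4 each), or 5.16-fold.

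The co-receptor CD4 is carried by helper and regulatory T cells. Cd4 was at 5.95, 4.70, 2.57 and 1.88 CPM in WT wounds and at 12.1, 20, 11.2 and 5.56 CPM in Col5a1CKO wounds. The lowest Col5a1CKO wound, replicate 4, was below the highest WT wound. Cd4 rose by 1.66 on the log2 scale (SE 0.49, adjusted p = 0.0254, edgeR), and Cd28, which gives the second signal for T cell activation, rose by 1.46 (SE 0.51, adjusted p = 0.0444, edgeR). Cd8a, the co-receptor gene of cytotoxic T cells, was low in all wounds, at 0.485 to 1.38 CPM (WT) and 0.467 to 0.713 CPM (Col5a1CKO), with a log2 fold change of -0.69 ± 0.41 (SE, adjusted p = 0.188, edgeR).

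Of the CD3 genes, which are needed together for a receptor at the cell surface, Cd3e passed the test and Cd3d and Cd3g did not. Cd3e was at 10.6, 8.32, 14.3 and 15.4 CPM in WT wounds and at 5.66, 8.01, 6.14 and 4.03 CPM in Col5a1CKO wounds. The groups came close without overlapping, with WT replicate 2 just above Col5a1CKO replicate 2. The log2 fold change was -1.07 ± 0.28 (SE, adjusted p = 0.0157, edgeR, n = 4 each), or 2.10-fold lower. The means of Cd3g were 20 ± 7.22 and 15.6 ± 4.54 CPM (SD) in WT and Col5a1CKO wounds and those of Cd3d 4.10 ± 1.56 and 4.87 ± 2.36, with log2 fold changes of -0.40 ± 0.32 and 0.21 ± 0.44 (SE, adjusted p = 0.321 and 0.709, edgeR). Lck, the kinase that phosphorylates the CD3 chains, had means of 6.14 ± 0.719 and 5.67 ± 2.04 CPM (SD) and a log2 fold change of -0.15 ± 0.30 (SE, adjusted p = 0.694, edgeR). A p that misses the threshold does not show equal levels.

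**Figure D2:**
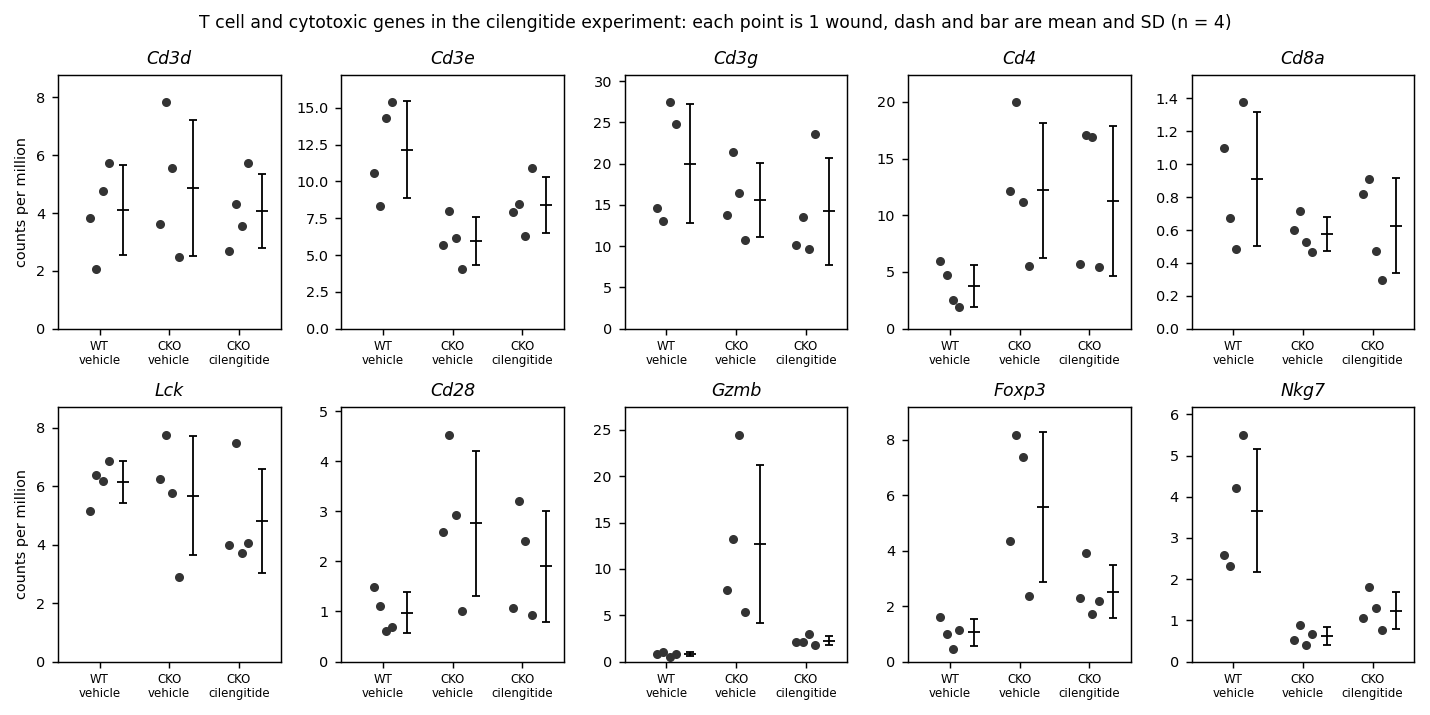
CPM of the 10 genes in the cilengitide experiment, with 1 point a wound and the mean and SD of 4 wounds beside each group, each panel on its own axis starting at 0. Gzmb and Foxp3 are high in vehicle-treated Col5a1CKO wounds (means 12.7 and 5.57 CPM), Nkg7 and Cd3e are low there (0.617 and 5.96 CPM), and cilengitide-treated Col5a1CKO wounds lie between the vehicle groups for Gzmb.

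The Gzmb, Foxp3 and Nkg7 calls held when each of the 8 vehicle libraries was left out in turn. The Cd3e call was lost without WT replicate 3 or 4 or Col5a1CKO replicate 3 or 4 (log2 fold change -1.06 to -0.86 in those fits), the Cd4 call without WT replicate 3 or 4 or Col5a1CKO replicate 2 or 3 (adjusted p 0.0527 to 0.0682), and the Cd28 call without 6 of the 8, all except WT replicate 1 and Col5a1CKO replicate 4 (adjusted p 0.0748 to 0.118, edgeR). The Cd28 call was also lost with library-size scaling (adjusted p = 0.0602) and with all genes of at least 1 count tested (adjusted p = 0.0582, edgeR).

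Markers of other cells moved alongside. Ptprc, which encodes the pan-leukocyte antigen CD45, rose by 3.85 on the log2 scale (SE 0.48, adjusted p = 0.0011, edgeR), or 14.4-fold. All 3 pan-leukocyte markers (Ptprc, Coro1a, Laptm5) rose, with summed levels of 103.6 to 208.8 CPM (WT) and 796 to 2325 CPM (Col5a1CKO). All 5 monocyte and macrophage markers rose (summed 256.5 to 933.7 against 3218 to 8112 CPM), as did 4 of 5 neutrophil markers (95.8 to 2199 against 1545 to 43820 CPM). Of 4 keratinocyte markers, Krt1, Krt5 and Krt10 fell and Krt14 did not pass, and their summed level spanned 58100 to 94670 CPM (WT) and 56.9 to 11160 CPM (Col5a1CKO). The part that this cell mixture plays in the change of any of the 10 genes was not tested. Y-linked RNA exceeded Xist in 2 of 4 WT and 3 of 4 Col5a1CKO vehicle wounds.

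Cilengitide was given to Col5a1CKO mice to ask whether blocking αvβ3 integrin alters these wounds. Against vehicle, Gzmb fell and none of the other 9 genes passed the test, a count of 0 of 10 higher and 1 of 10 lower against 6.48% higher and 6.59% lower among 15563 genes tested. Gzmb was at 2.15, 2.08, 3.02 and 1.81 CPM in the cilengitide-treated wounds. All 4 lay below the lowest vehicle-treated Col5a1CKO wound at 5.40 CPM and above the highest WT vehicle wound at 0.976 CPM. The log2 fold change against Col5a1CKO vehicle was -2.48 ± 0.47 (SE, adjusted p = 0.0117, edgeR, n = 4 each), or 5.56-fold lower, and the call held in all 8 fits that left out 1 library.

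Foxp3 and Nkg7 missed the threshold. Foxp3 was at 2.28, 3.90, 1.72 and 2.18 CPM with cilengitide, against 2.36 to 8.19 CPM with vehicle, and its log2 fold change was -1.13 ± 0.43 (SE, adjusted p = 0.0861, edgeR). The cilengitide and vehicle ranges overlapped, through cilengitide replicate 2 and vehicle replicate 4. Leaving out vehicle replicate 4 gave Foxp3 an adjusted p of 0.0221, and DESeq2 gave 0.0393. Nkg7 was at 1.05, 1.82, 1.30 and 0.772 CPM with cilengitide, against 0.395 to 0.894 CPM with vehicle, with a log2 fold change of 1.0 ± 0.39 (SE, adjusted p = 0.0907, edgeR and 0.0379, DESeq2). Only cilengitide replicate 4 fell inside the vehicle range of Nkg7. Cd3e changed by 0.51 ± 0.25 (SE, adjusted p = 0.162, edgeR) and Cd4 by -0.10 ± 0.51 (SE, adjusted p = 0.905, edgeR). The Cd4 values split within the cilengitide group, with replicates 2 and 3 at 17.1 and 16.9 CPM and replicates 1 and 4 at 5.70 and 5.42 CPM.

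Cilengitide-treated Col5a1CKO wounds were also set against the WT vehicle wounds, which asks what difference was left under treatment. Gzmb was still higher and Nkg7 still lower, a count of 1 of 10 in each direction, against 5.15% higher and 3.43% lower among 15514 genes tested. The comparison shares its cilengitide wounds with the one before and its WT wounds with the vehicle comparison. Gzmb differed by 1.51 on the log2 scale (SE 0.28, adjusted p = 0.0195, edgeR) and Nkg7 by -1.57 (SE 0.38, adjusted p = 0.0291, edgeR), and neither gene overlapped between the groups. The Gzmb call was lost without cilengitide replicate 2, 3 or 4 (adjusted p 0.0517 to 0.0556), and that of Nkg7 without WT replicate 3 or 4 or any of the 4 cilengitide replicates (adjusted p 0.0528 to 0.0739, edgeR). Without cilengitide replicate 2, 3 or 4, only 3, 1 and 1 of all genes were called higher and 0 lower. The fit with all wounds called 799 higher and 532 lower. In those 3 fits the Gzmb log2 fold change was 1.345 to 1.627. Foxp3 did not overlap between the groups either, at 0.467 to 1.61 against 1.72 to 3.90 CPM, and had a log2 fold change of 1.26 ± 0.42 (SE, adjusted p = 0.0628, edgeR). Cd4 had a log2 fold change of 1.58 ± 0.52 (SE, adjusted p = 0.0651, edgeR) and Cd3e one of -0.54 ± 0.24 (SE, adjusted p = 0.128, edgeR). DESeq2 called 3 genes higher, Gzmb, Cd4 and Foxp3, and 1 lower, against 1448 higher and 718 lower of all 15514 genes tested.

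The markers again moved with the treatment. The pan-leukocyte sum was 318.5 to 564.5 CPM with cilengitide, and Ptprc fell by 2.29 on the log2 scale against vehicle (SE 0.51, adjusted p = 0.0184, edgeR). The keratinocyte sum was 31320 to 65250 CPM, with Krt1 and Krt10 higher than under vehicle and Krt5 and Krt14 not past the test. Their part in the Gzmb result was not tested.

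Setting Cd3e against Ptprc gives a T cell receptor transcript relative to a single pan-leukocyte transcript. The measure is the log2 of their count ratio with 0.5 added to each count. Mean Ptprc was 45.2 CPM in WT and 675 CPM in Col5a1CKO vehicle wounds, and mean Cd3e 12.2 and 5.96 CPM. Between these groups the ratio therefore moved more through Ptprc than through Cd3e. Per 1000 counts of Ptprc, Cd3e stood at 154 to 443 counts in WT vehicle wounds, at 4.12 to 29.6 in Col5a1CKO vehicle wounds and at 46.5 to 82.1 in cilengitide-treated Col5a1CKO wounds. These 3 ranges were separate. The mean log2 ratio differed by -4.76 between Col5a1CKO and WT vehicle wounds, by 2.70 between cilengitide and vehicle in Col5a1CKO wounds and by -2.06 between cilengitide-treated Col5a1CKO and WT wounds. Each difference had p = 0.0286 in a two-sided exact permutation test, the smallest that 4 against 4 wounds allow, and an adjusted p of 0.0857 over the 9 comparisons of this ratio.

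Relative to Ptprc, every gene of the set except Gzmb had a lower median in Col5a1CKO than in WT vehicle wounds. This held for Foxp3, Cd4 and Cd28 too, although they rose in CPM. Their medians per 1000 Ptprc counts were 24.2, 76.8 and 20.2 in WT and 8.59, 19.1 and 4.36 in Col5a1CKO vehicle wounds. For each of them the ranges of these groups overlapped. The median of Gzmb was 17.1 in WT and 20.9 in Col5a1CKO vehicle wounds. Per 1000 Ptprc counts, Nkg7 stood at 43.1 to 158 counts in WT vehicle wounds, 0.392 to 3.31 in Col5a1CKO vehicle wounds and 3.30 to 17.6 with cilengitide. Gzmb stood at 13.9 to 23.1, 5.53 to 48.7 and 7.73 to 31.8 in the same groups. The 3 ranges of Gzmb overlapped, whereas for Nkg7 the WT range was separate from both others.

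**Figure D3:**
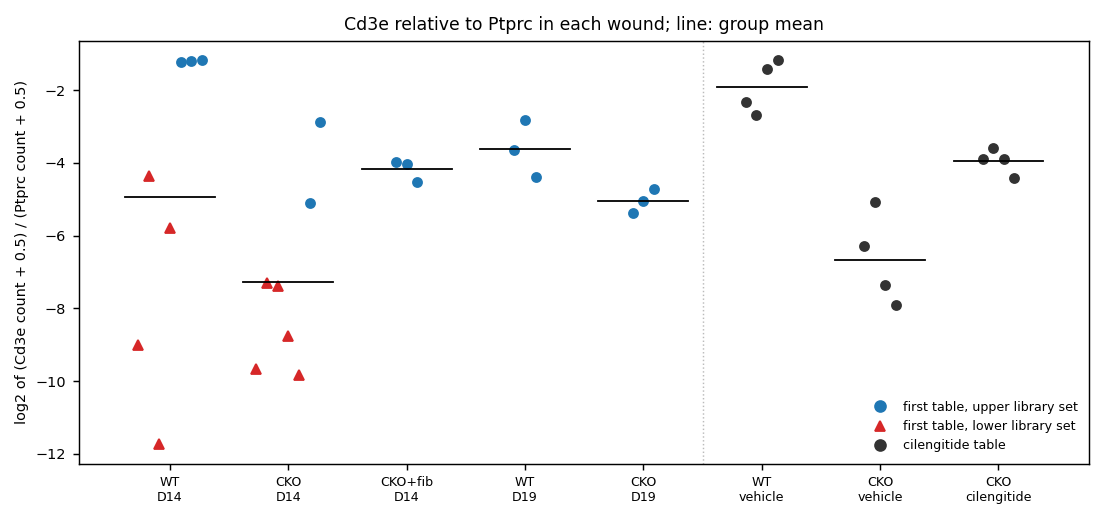
Log2 ratio of Cd3e to Ptprc counts (0.5 added to each) in every wound of the 8 groups, with 1 symbol a wound and a line at the group mean, and triangles for the lower library set. The mean is -1.91 in WT vehicle wounds, -6.66 in Col5a1CKO vehicle wounds and -3.96 with cilengitide, and at day 14 the triangles lie below the circles of their own group.

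In the day and fibroblast experiment, 7 Col5a1CKO and 7 WT wounds of day 14 were compared. Cd4 rose and no other gene passed, a count of 1 of 10 higher and 0 of 10 lower, against 5.57% higher and 2.71% lower among 14367 genes tested. An unadjusted p below 0.05 was found for 3 of the 10 and 3940 of all genes (edgeR). DESeq2 gave the same counts of calls among the 10, against 1245 higher and 850 lower of all genes. Cd4 had a lowest, median and highest level of 0.513, 4.58 and 5.67 CPM in WT wounds and of 5.93, 11.5 and 22.9 CPM in Col5a1CKO wounds. The groups did not overlap, although WT replicate c was far below the other WT wounds and the highest WT wound was close to the lowest Col5a1CKO wound. The log2 fold change was 1.62 ± 0.45 (SE, adjusted p = 0.0323, edgeR), and the call was lost without WT replicate e or g or Col5a1CKO replicate a, b, c or f (adjusted p 0.0548 to 0.0775).

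Gzmb had a lowest, median and highest level of 0, 0.603 and 6.23 CPM in WT wounds and of 1.56, 5.08 and 13.8 CPM in Col5a1CKO wounds. The overlap came from WT replicate b at 6.23 CPM, since the other 6 WT wounds were at 0 to 1.55 CPM. The log2 fold change was 2.39 ± 1.09 (SE, adjusted p = 0.169, edgeR), and without WT replicate b it was 3.83 with an adjusted p of 0.0313. Foxp3 was at 0, 0.0627 and 1.94 CPM (lowest, median, highest) in WT and at 1.15, 2.54 and 6.48 CPM in Col5a1CKO wounds, with a log2 fold change of 2.33 ± 1.05 (SE, adjusted p = 0.166, edgeR). WT replicates a, b and c had no Foxp3 count, which allows up to 0.187 to 0.199 CPM at 3 counts a library. This limit covers counting error only and was scaled to the library total without the TMM factor.

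The genes that fell in the vehicle comparison could not be resolved at day 14. Nkg7 was at 0, 2.64 and 10.2 CPM (lowest, median, highest) in WT and at 0.251, 0.714 and 3.56 CPM in Col5a1CKO wounds, with a log2 fold change of -1.33 ± 1.21 (SE, adjusted p = 0.50, edgeR). Cd3e was at 0, 5.19 and 21.7 CPM and at 0.151, 1.64 and 18.9 CPM, with a log2 fold change of -0.71 ± 1.16 (SE, adjusted p = 0.733, edgeR). Within both genotypes the high values of Cd3e belonged to the upper library set, at 12.7 to 21.7 and 9.71 to 18.9 CPM, and the low values to the lower set, at 0 to 5.19 and 0.151 to 3.44 CPM. The log2 fold changes of Cd3g, Cd28, Cd3d, Cd8a and Lck were -0.62, 0.37, 0.27, -0.18 and -0.17, with adjusted p of 0.674 to 0.939 (edgeR). Cd8a had no count in WT replicates a to d, which allows up to 0.165 to 0.199 CPM, again without the TMM factor.

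**Figure D4:**
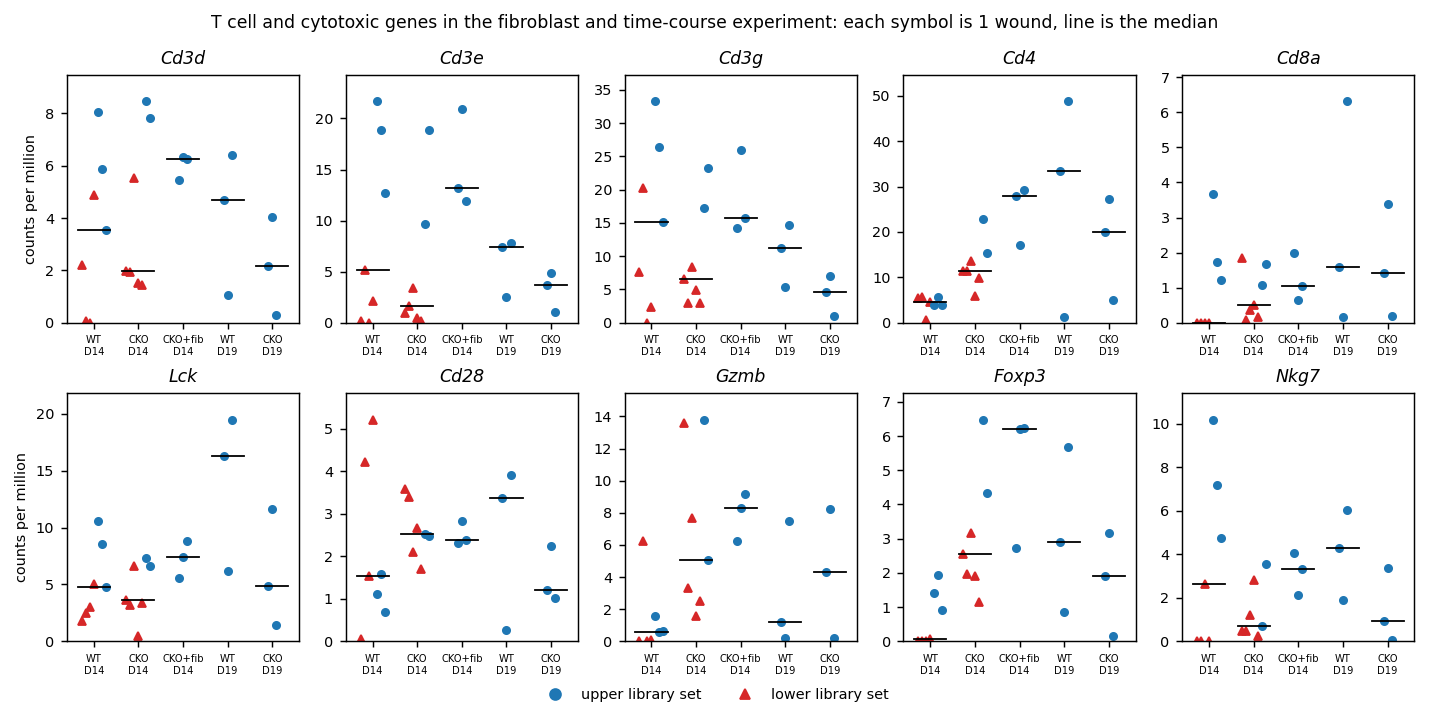
CPM of the 10 genes in the 5 groups of the day and fibroblast experiment, each panel on its own axis starting at 0, with circles for the upper and triangles for the lower library set and a line at the group median. Cd4 is separate between day 14 WT (at most 5.67 CPM) and Col5a1CKO wounds (at least 5.93 CPM), and in day 14 wounds of either genotype the upper-set circles of Cd3e lie above the lower-set triangles.

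Because the library sets divide the day 14 wounds, the comparison was repeated within each. In the upper set, with 2 Col5a1CKO and 3 WT wounds, Cd4 and Gzmb rose, 2 of 10 against 8.82% higher among 15312 genes tested, and none fell against 0.411%. The log2 fold changes there were 2.18 for Cd4 (adjusted p = 0.0369, edgeR) and 3.45 for Gzmb (adjusted p = 0.0475, edgeR). Foxp3 at 2.02, Cd28 at 1.25 and Nkg7 at -1.68 did not pass (adjusted p = 0.0515, 0.114 and 0.187, edgeR). All 3 WT wounds of this set had more Y-linked than Xist RNA and both Col5a1CKO wounds the reverse, so sex and genotype cannot be told apart there. In the lower set, with 5 Col5a1CKO and 4 WT wounds, Foxp3 rose and Cd4 did not pass (log2 fold change 1.36, adjusted p = 0.204, edgeR), a count of 1 of the 8 genes with enough counts against 3.68% higher among 14472 genes tested, and none fell against 2.92%. The Foxp3 call there (adjusted p = 0.0194, edgeR) rested on 1 count in 4 WT libraries against 23 to 72 counts in each Col5a1CKO library, so no fold is given. With library set as a covariate over all day 14 wounds, 2 of 10 genes rose and 0 fell, against 1299 higher and 558 lower of 14367 tested. Foxp3 was among the 2 (adjusted p = 0.0059, edgeR), in a fit that includes the same 4 WT libraries.

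Ptprc rose at day 14 by 2.14 on the log2 scale (SE 0.45, adjusted p = 0.0104, edgeR), and the pan-leukocyte sum spanned 152.9 to 285.6 CPM (WT) and 361.9 to 1489 CPM (Col5a1CKO). The keratinocyte sum spanned 30120 to 151500 CPM (WT) and 30.2 to 56230 CPM (Col5a1CKO), with 0 of 4 markers past the test (edgeR). Their part in the Cd4 result was not tested. The log2 ratio of Cd3e to Ptprc differed by -2.34 between the genotypes (2-sided exact permutation p = 0.221, adjusted p = 0.285). Per 1000 Ptprc counts, Cd3e stood at 429 to 439 in the upper-set WT wounds and at 29.2 and 136 in the upper-set Col5a1CKO wounds.

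**Figure D5:**
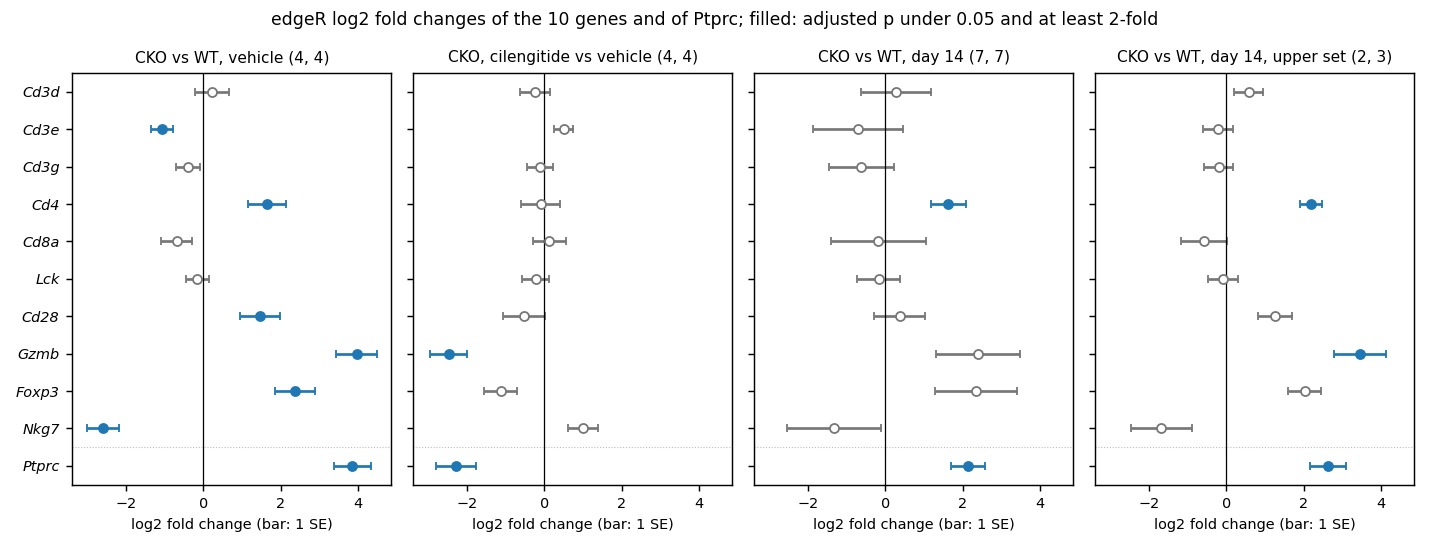
Log2 fold change (edgeR, bar 1 SE) of the 10 genes and Ptprc in 4 comparisons, numbers of wounds in brackets, filled where the adjusted p was below 0.05 and the change at least 2-fold. Gzmb is filled at 3.96, -2.48 and 3.45 in the vehicle, cilengitide and upper-set day 14 panels and open at 2.39 in the day 14 panel of all wounds, while Cd3d and Lck are open in every panel.

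Col5a1CKO wounds that received WT fibroblasts were compared with the Col5a1CKO wounds of day 14 that did not, to ask whether the transfer changes them. None of the 10 genes passed, against 0% higher and 0% lower among all 15659 genes tested, with 1 of the 10 and 2001 of all genes at an unadjusted p below 0.05 by edgeR. DESeq2 called none of the 10 genes and 9 higher and 10 lower of all. Cd4 was at 27.9, 17.2 and 29.3 CPM with fibroblasts, with a log2 fold change of 0.93 (adjusted p = 0.365, edgeR), and Cd3e was at 13.2, 20.9 and 11.9 CPM, with 1.59 (adjusted p = 0.510, edgeR). All 3 fibroblast wounds belonged to the upper set. Against the 2 Col5a1CKO wounds without fibroblasts in that set, no gene of the 15558 tested passed by edgeR, with 87 at an unadjusted p below 0.05, and each of the 10 genes missed it too.

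Set against WT wounds of day 14, fibroblast-treated Col5a1CKO wounds had higher Cd4, 1 of 10 higher and none lower, against 3.77% higher and 2.06% lower among 15317 genes tested. This comparison shares its fibroblast wounds with the one before and its WT wounds with the day 14 comparison. The lowest fibroblast wound, at 17.2 CPM of Cd4, was above the highest WT wound at 5.67 CPM. The log2 fold change was 2.69 ± 0.55 (SE, adjusted p = 0.0146, edgeR), and the call was lost without fibroblast replicate a or c (adjusted p = 0.0824 and 0.103) and with the replicate letter as a block (log2 fold change 3.0, adjusted p = 0.0645). In the block fit, all WT wounds were lower set and all fibroblast wounds upper set.

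Within the upper set, 3 fibroblast and 3 WT wounds gave 4 genes higher and 1 lower of 10, against 19.8% and 11.2% of 15132 genes tested. Gzmb was at 6.25, 8.32 and 9.16 CPM with fibroblasts and at 1.55, 0.603 and 0.614 CPM in WT wounds. The groups were well separated, and the log2 fold change was 3.26 (adjusted p = 0.0013, edgeR). Cd4, Foxp3 and Cd28 were higher by 2.62, 1.97 and 1.30 on the log2 scale (adjusted p = 0.00066, 0.0100 and 0.0257, edgeR). Nkg7 was at 4.04, 2.13 and 3.31 CPM with fibroblasts and at 10.2, 7.17 and 4.75 CPM in WT wounds, with a log2 fold change of -1.07 (adjusted p = 0.0498, edgeR). The direction of each of these 5 genes was that of the vehicle comparison, which used other wounds. Ptprc was higher by 2.90 (adjusted p = 0.00043, edgeR), and all 3 fibroblast wounds had more Xist than Y-linked RNA while the WT wounds had the reverse, so sex and group cannot be told apart here either.

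At day 19, none of the 10 genes passed between 3 Col5a1CKO and 3 WT wounds, against 0.0198% higher (3 genes) and 0% lower among 15135 tested. None of the 10 and 3652 of all genes were at an unadjusted p below 0.05 by edgeR. DESeq2 called none of the 10, against 684 higher and 713 lower of all genes. The spread within groups was wide at this day. WT replicate b and Col5a1CKO replicate c were low for most of the genes, with Cd4 at 1.30 CPM against 33.4 and 48.8 in the other WT wounds and at 5.01 CPM against 19.9 and 27.2 in the other Col5a1CKO wounds. Ptprc was also low in the same wounds, at 18.2 CPM against 92.8 and 164 and at 27.5 CPM against 157 and 161.

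Of the day 19 log2 fold changes, 9 of 10 were negative, with a median of -0.83 against -0.01 over all genes tested. Gzmb was the exception, at 1.17, 0.230 and 7.50 CPM in WT and 4.32, 8.24 and 0.193 CPM in Col5a1CKO wounds, with 0.55 (adjusted p = 0.838, edgeR). Nkg7 was at 4.27, 1.88 and 6.03 CPM in WT and 0.949, 3.39 and 0.0482 CPM in Col5a1CKO wounds, with -1.41 (adjusted p = 0.460, edgeR). Cd3e had a log2 fold change of -0.84 (adjusted p = 0.473, edgeR). The log2 ratio of Cd3e to Ptprc differed by -1.44 without overlap between the groups, with a 2-sided exact permutation p = 0.1, the smallest that 3 against 3 wounds allow.

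Between day 14 and day 19, none of the 10 genes passed in WT wounds (against 1.5% higher and 4.25% lower of 15180 tested, with 2 of the 10 at an unadjusted p below 0.05) or in Col5a1CKO wounds (against 1.87% higher and 3.85% lower of 15327 tested, with 0 of the 10). In WT wounds, Cd4 had a log2 fold change of 2.80 (adjusted p = 0.0659, edgeR) and passed without WT replicate b of day 19 (3.42, adjusted p = 0.0169), and by DESeq2 (adjusted p = 0.0091), which called no other of the 10 genes in either genotype. Of all genes, DESeq2 called 654 higher and 1316 lower in WT wounds and 504 higher and 1149 lower in Col5a1CKO wounds. Cd3e, compared within the upper set, was at 21.7, 18.9 and 12.7 CPM in WT wounds of day 14 and at 7.44, 2.57 and 7.79 CPM at day 19. The days did not overlap, and the log2 fold change was -1.42 (adjusted p = 0.0673, edgeR), against -0.42 over all WT wounds. In Col5a1CKO wounds the log2 fold changes of Cd3e and Cd3g were -0.68 and -1.17 over all wounds (adjusted p = 0.789 and 0.373, edgeR) and -2.10 and -2.20 within the upper set (adjusted p = 0.182 and 0.192).

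The change from day 14 to day 19 was also compared between the genotypes, as an interaction. None of the 10 genes passed, against 0% higher and 0% lower among 15954 genes tested, with 1 of the 10 and 938 of all genes at an unadjusted p below 0.05 by edgeR. DESeq2 called none of the 10, against 24 higher and 16 lower of all genes. The interaction was -2.30 for Cd4 and -3.18 for Foxp3 on the log2 scale (adjusted p = 0.818 and 0.922, edgeR).

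Other genes of the same pathways were read from fixed lists in the vehicle comparison, where 17.5% of all genes tested rose and 13.4% fell. Among 19 tested genes of the T cell receptor and its proximal signalling, 3 rose and 3 fell, which is near those shares. The adaptor gene Trat1, the kinase gene Prkcq and the exchange factor gene Rasgrp1 fell, with log2 fold changes of -4.47, -2.75 and -2.28, and Cd6, Cd27 and Lcp2 rose by 2.58, 2.06 and 3.94 (adjusted p 0.00047 to 0.0087, edgeR). Lcp2 encodes an adaptor that myeloid cells also use. In day 14 WT wounds, Rasgrp1 was at 25.5 to 63.2 CPM and Prkcq at 3.01 to 35.2 CPM, where Cd3e ranged from 0 to 21.7 CPM. Which cells carried the RNA of Rasgrp1, Prkcq and Trat1 was not tested. With cilengitide, Trat1, Prkcq and Rasgrp1 were higher than under vehicle by 2.67, 2.02 and 1.43, and Cd6 and Lcp2 were lower (adjusted p 0.0021 to 0.0274, edgeR).

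Of the cytotoxic and natural killer list, 5 of 18 tested genes rose and 3 fell in Col5a1CKO vehicle wounds, against 17.5% and 13.4% of all genes. Gzma, Gzmd, Gzme, Cst7 and the chemokine gene Ccl5 rose, Gzma by 2.58 (adjusted p = 0.0025, edgeR), while the perforin gene Prf1 fell by 1.39 on the log2 scale (adjusted p = 0.0292), the granule protease gene Ctsw by 1.98 (adjusted p = 0.0017) and the chemokine gene Xcl1 by 2.92 (adjusted p = 0.0030). Granzyme genes of the Gzmb cluster are similar in sequence, so counts of Gzmd and Gzme may be uncertain between copies. With cilengitide against vehicle, 1 of 19 genes passed, Klrc1, which was lower, against 6.48% higher and 6.59% lower of all genes. In the day 14 comparison, 0 of 11 tested genes passed (edgeR), against 5.57% and 2.71%.

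The regulatory T cell and checkpoint list was mostly higher, as Foxp3 was. In vehicle wounds, 12 of 16 genes rose and 2 fell, against 17.5% and 13.4% of all genes, with a median log2 fold change of 2.98 against 0.02 over all genes tested. Leukocyte markers in general rose about as much. Their medians were 3.303 for pan-leukocyte, 2.625 for monocyte and macrophage and 3.951 for neutrophil markers. The rise is therefore not particular to this list. Ctla4, the inhibitory receptor of regulatory T cells, rose by 4.79 (adjusted p = 0.0011, edgeR), Il2ra, the high-affinity interleukin-2 receptor chain, by 4.25 (adjusted p = 0.00083) and Il10, an anti-inflammatory cytokine gene, by 3.96 (adjusted p = 0.0025). Tnfrsf18 and Ikzf2, which are also listed as regulatory T cell genes, fell by 2.46 and 2.18 on the log2 scale (adjusted p = 0.00069 and 0.0013). In day 14 WT wounds, Ikzf2 averaged 33.3 CPM, with a lowest value of 11.7, where Foxp3 averaged 0.618 CPM. Which cells carried the RNA of Ikzf2 and Tnfrsf18 was not tested. Cd80, Cd86, Cd274, Pdcd1lg2 and Havcr2, which rose as well, are also carried by myeloid cells. With cilengitide against vehicle, 9 of the 16 were lower, against 6.59% of all genes, Ctla4 by -2.52 (adjusted p = 0.0073), and Tnfrsf18 and Ikzf2 were higher. At day 14, 7 of 15 tested genes rose, against 5.57% of all genes, and none fell, Ctla4 by 4.10 (adjusted p = 0.0112, edgeR).

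Among T helper cytokines and factors, 3 of 6 tested genes rose and 2 fell in the vehicle comparison, against 17.5% and 13.4% of all genes, the shares for the next lists too. Il17a and Il17f, the interleukin-17 genes of helper and γδ T cells, rose by 7.01 and 6.35 (adjusted p = 0.0016 and 0.00094, edgeR), Il22 rose from no count in any WT wound, and Gata3 fell by 5.96 on the log2 scale (adjusted p = 0.00046). Gata3 is also expressed by keratinocytes. With cilengitide, all 3 cytokine genes were lower than under vehicle, Il17a by -4.91 (adjusted p = 0.0102), and Gata3 was higher by 4.36 (adjusted p = 0.0030). Of T cell growth and survival genes, 4 of 10 rose and 2 fell, Il7r by 3.11 (adjusted p = 0.0019) and Bcl11b, a T cell factor that keratinocytes also express, by -3.13 (adjusted p = 0.00029). Of T cell homing genes, 6 of 18 rose and 2 fell, the latter near the share of all genes, with Cxcr6, a chemokine receptor gene, at 1.61 (adjusted p = 0.0027) and Ccl20, a chemokine gene of epithelia, at -6.34 (adjusted p = 0.0018). At day 19, none of the genes on these lists passed (edgeR).

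Finally, genes whose level ran most like that of the CD3 genes were sought over the 23 wounds of the day and fibroblast experiment, as Pearson's r with the mean log2 CPM of Cd3d, Cd3e and Cd3g across 16237 genes. The highest were Ptprcap at 0.904, which encodes a protein bound to CD45 in lymphocytes, Sema4a at 0.900, F2rl2 at 0.896, Mbp at 0.893 and Orai1, a calcium channel gene, at 0.888. Only Ptprcap was also high over the 12 cilengitide wounds, at 0.728, where the other 4 stood between -0.301 and 0.157. Among the remaining 7 genes of the set, r over the 23 wounds was 0.683 for Lck, 0.661 for Foxp3, 0.641 for Cd8a, 0.612 for Nkg7, 0.502 for Cd4, 0.440 for Gzmb and 0.160 for Cd28, and it was 0.0546 for Ptprc. Over the 14 upper-set wounds alone, r was 0.442 for Ptprc, 0.459 for Cd28 and 0.246 for Cd4, so these values moved with the library set. In the cilengitide wounds it was positive for Lck at 0.553, Nkg7 at 0.510 and Cd8a at 0.212, and negative for Cd4 at -0.326, Gzmb at -0.216, Cd28 at -0.132 and Foxp3 at -0.0947, and for Ptprc it was -0.396. These are descriptions over wounds that share group and library set.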

How the data were processed

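RNA from a punch biopsy of the middle of each wound or scar was sequenced as stranded libraries with 50 bp single-end reads. The authors deposited raw read counts per transcript, with 29082 entries for the day and fibroblast experiment and 22831 for the cilengitide experiment. Per the labels, reads were aligned with HISAT2 to mm9. The study's methods name SeqMonk and RefSeq exons for counting, without saying that this covers the cilengitide table. Entries that name no gene (30 and 1, at most 0.0694% and 0.0002% of a library) were left out, and no value column went unmapped.

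From the deposited counts, CPM, RPKM (only where transcript lengths were given) and tests were computed with R 4.3.3, edgeR 4.0.16 and Python 3.11.15 (numpy 2.4.6, pandas 2.3.3, scipy 1.17.1, matplotlib 3.10.9). Each comparison was fitted on its own groups with TMM factors, filterByExpr (minimum count 10), the quasi-likelihood test and Benjamini-Hochberg adjustment over all genes tested, with a call at adjusted p 0.05 and 2-fold. The scripts were tested on simulated data with known changes, of which part was recovered. Library sets came from the log2 ratio between the upper and lower 10% of 11831 genes by GC content (mean of at least 5 CPM), where the widest gap was 1.541 and the next 0.395 in the day and fibroblast libraries, and 0.224 and 0.14 in the cilengitide libraries, which were not divided. Depth sets the counting precision: 1 count was worth most in the shallowest library of 15043531 counts. No libraries were near-copies (highest r 0.993 and 0.994).

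Named genes were all 10 members, plus, for each list, those with the smallest adjusted p, and further list members were named after their values were seen. Some list genes are not reported here. The members, lists and comparisons were chosen with earlier results of these data known. Gene positions are GENCODE vM1 on NCBI37 (mm9). The labels do not say that replicate letters pair samples between groups, and the data do not settle it. Between fibroblast-treated Col5a1CKO and WT wounds of day 14, deviations of the 3 same-lettered pairs correlated at 0.147 to 0.457. There, 2 of 3 letters correlated best with their own. Between WT wounds of day 14 and day 19, 3 of 3 did, at 0.0762 to 0.387. In every other pair of groups at least 1 correlation was below 0.1. Alternatives were DESeq2 1.42.0, library-size scaling, all genes with at least 1 count, a 3-fold threshold, sums over all entries of a symbol, a pseudocount of 1 and other denominators for the Cd3e ratio, each library left out, the replicate block, library set as a covariate and fits within a set.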

Additional observations from a re-analysis of the deposited data

Results flagged for a closer look

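In 50 sets of values, the 10 genes in the groups of 4 or 7 wounds, a wound far from the rest of its group was found 3 times, and at the 0.05 level chance marks about 1 in 20 groups. Cd4 in WT replicate c of day 14 was 0.513 CPM, with the other 6 at 3.89 to 5.67 CPM. Gzmb in WT replicate b of day 14 was 6.23 CPM, with the other 6 at 0 to 1.55 CPM. Both wounds belong to the lower library set. Lck in cilengitide replicate 2 was 7.47 CPM, with the other 3 at 3.72 to 4.07 CPM.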

How the results depend on the processing

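Of 272 counts of called members under an alternative, 229 stayed within 1.5 times the reported count and 43 did not. In vehicle wounds, leaving out 1 library gave 2 to 4 higher and 1 to 2 lower, and the 3-fold threshold 1 lower. Of all genes, leaving out 1 library gave 2194 to 2917 higher and 1816 to 2378 lower. The 3-fold threshold gave 1937 higher and 1352 lower of 15434. For cilengitide against vehicle, DESeq2 called 1 higher and 2 lower, against 1189 higher and 1475 lower of all 15563 genes, and leaving out 1 library gave 1 to 2 lower. Of all genes, leaving out 1 library gave 334 to 1417 lower. For cilengitide-treated Col5a1CKO against WT, the 3-fold threshold gave 0 in either direction, DESeq2 3 higher, and leaving out 1 library 0 to 1 either way. Of all 15514 genes, the 3-fold threshold gave 381 higher and 216 lower, and DESeq2 1448 and 718. Leaving out 1 library gave 1 to 1192 higher and 0 to 619 lower of all genes. At day 14, the replicate block gave 0 higher, library set as a covariate 2, the upper set 2 and leaving out 1 library 0 to 2. Of all genes, the block gave 757 higher and the covariate 1299, of 14367 each. The upper set gave 1350 higher of 15312, and leaving out 1 library 494 to 928 higher. For fibroblasts against Col5a1CKO without fibroblasts, the block gave 1 higher (Cd3e, 3.07, adjusted p = 0.0256, edgeR), against 1415 higher of all 15162 genes. For fibroblasts against WT, the block gave 0 higher, the upper set 4 higher and 1 lower, and leaving out 1 library 0 to 1 higher. Of all genes, this block gave 1458 higher of 14606, and the upper set 2999 higher and 1691 lower of 15132. Leaving out 1 library gave 207 to 268 higher of all genes. Both block fits kept letters a to c only. Those wounds were all lower set without fibroblasts and all upper set with them, so group and library set cannot be told apart there. Between days in WT wounds, DESeq2 and library-size scaling each gave 1 higher (Cd4), and leaving out 1 library 0 to 1. Of all 15180 genes, DESeq2 gave 654 higher and library-size scaling 719. Leaving out 1 library gave 16 to 273 higher of all genes. In day 14 Col5a1CKO against WT wounds, 3 of 7 letters correlated best with their own (correlations -0.445 to 0.566).

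Values of genes that had not been called changed sign as follows, and the cause was not tested. At day 14, Cd8a was 1.76 with the replicate block and 2.86 with library set as a covariate. Lck was 0.0149 with library-size scaling, 0.0589 with the covariate and 0.17 in the lower set, where Cd28 was -0.037, and Nkg7 was 0.25 with the block. For fibroblasts against WT, Nkg7 was 0.17 with library-size scaling and 5.40 with the block. Cd3e between days was 4.89 in WT and 0.71 in Col5a1CKO wounds with the block. The block fits for fibroblasts against WT and between days set day 14 wounds of the lower set against wounds of the upper set. Group and library set cannot be told apart in them. Within the upper set, the Cd3e to Ptprc difference was -0.19 for fibroblasts against Col5a1CKO, -2.98 for fibroblasts against WT, -2.41 between days in WT and -1.06 in Col5a1CKO wounds. Leaving out 1 library gave ranges across 0 at day 14 for Cd3d (-0.033 to 0.59), Cd8a (-0.49 to 0.70) and Lck (-0.35 to 0.082), at day 19 for Gzmb (-0.36 to 2.65), for Nkg7 in fibroblasts against WT (-0.25 to 0.20), for Cd3d (-0.13 to 0.49) and Lck (-0.35 to 0.12) in vehicle wounds, and for Cd4 with cilengitide (-0.35 to 0.24). The interaction within the upper set, an alternative chosen after seeing the data, called none of the 10 genes (edgeR), with none of them and 3124 of all genes at an unadjusted p below 0.05. Library-size scaling moved the median log2 fold change of all genes from -0.032 to 0.13 at day 14, from -0.0096 to -0.39 at day 19, from 0.027 to 0.16 for fibroblasts against WT, from 0.0028 to 0.43 between days in WT wounds and from -0.0064 to -0.53 for the interaction. Depth limits Cd8a most, at 0 to 129 counts a library.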
